A study of Mus musculus with 3 samples.

Results

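Genes of glycolysis, glucose uptake and the tricarboxylic acid (TCA) cycle were followed in glomerular endothelial cells (GEC) of adult mice. The list holds 57 genes, chosen by what their products do. A probe set, the group of probes that an array summarises as 1 value, was taken as a member where the platform annotation gives it the symbol of 1 listed gene and no other. This gave 59 probe sets for 52 genes, out of 21789 probe sets that name 1 gene. Gpi1, Pfkfb1, Eno1, G6pdx and Akr1b3 were not analysed here. The arrays were Affymetrix Mouse Gene ST arrays, and the 3 samples (replicates 1, 3 and 5) form 1 group, so no comparison between groups exists. Each sample was RNA of 1 adult kidney, unpooled, from mice that carry Tg(TIE2GFP)287Sato on a mixed background, primarily CD-1, of unknown sex and with no treatment named. In this transgene the Tie2 (Tek) promoter drives green fluorescent protein, and GFP positive cells were sorted from sieved glomeruli after digestion with collagenase and trypsin. The Tie2 promoter is also known to be active in some blood cells. The study calls its samples independent biological samples, but the labels do not say that the kidneys came from separate mice. The p-values therefore measure the spread between these samples, which may in part be technical. For 22 of the 52 genes the values were identical on all arrays, and there the p-value rests on the variance of other probe sets.

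Glycolysis splits glucose into pyruvate in the cytosol, and pyruvate is then either reduced to lactate or carried into mitochondria, where pyruvate dehydrogenase feeds it into the TCA cycle. Facilitated transporters of the Slc2a (GLUT) family let glucose into the cell, and side branches lead to the pentose phosphate pathway, which makes NADPH and ribose, and to sorbitol. Endothelial cells in general are known for making much of their ATP by glycolysis. In the kidney, gluconeogenesis belongs to the proximal tubule and is not an endothelial pathway.

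With 1 group, a gene can be compared only with a fixed level. The level was 100, which is 6.64 on the log2 scale of the deposited signals. The study used this number to remove low probe sets on raw values, a scale that need not be the deposited one. Levels are given below as log2 signals on replicates 1, 3 and 5 or as means ± SD (n = 3 arrays). A gene was called above or below the level at an adjusted p under 0.05 in limma. Probe sets differ in how well they bind their target, so the levels do not rank the genes against each other. A second and lower reference was the 95th percentile of 1035 probe sets for olfactory receptors, genes that are not used outside sensory tissue with few exceptions. It lies at 28.9, or 4.85 on the log2 scale.

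The markers of the labelled cell type were high. All 12 genes of the endothelium list were called above the level, among them Pecam1 at 10.26 ± 0.21 and Cdh5 at 10.75 ± 0.32, which encode adhesion molecules of endothelial junctions. Over all probe sets, 15.8% were called above and 72.5% below. Of 45 measured markers of podocytes, mesangium and smooth muscle, proximal tubule, distal nephron, leukocytes, and red cells and platelets, 43 were called below. The 2 called above were Podxl, at 9.86 ± 0.08, and Aqp1, at 8.25 ± 0.52, and both are also known from endothelium. The first 2 genes of each of those lists were below where measured: Nphs1 at 5.47, Pdgfrb at 4.22, Itga8 at 5.26, Slc34a1 at 5.37, Lrp2 at 4.33, Umod at 5.15, Slc12a1 at 3.56, Ptprc at 4.77, Cd68 at 5.29 and Alas2 at 5.28. The call of Itga8 was lost without replicate 5 (adjusted p = 0.051, with 0.0014 to 0.051 over the alternatives that keep the level of 100). The summed signal of the endothelial markers was lower on replicate 3, at 12646, than on replicates 1 and 5, with 18958 and 21657. Their median was 10.46, 9.52 and 10.58 on replicates 1, 3 and 5. This did not hold for each marker against replicate 1. Eng had 8.91, 9.31 and 9.96, Icam2 had 9.14, 9.16 and 9.62, and Tie1 had 7.60 on replicates 1 and 3. The 43 markers of other cell types without Podxl and Aqp1 summed to 1241, 1150 and 1156 on replicates 1, 3 and 5. Against the lower, olfactory receptor level, 13 of the 45 markers of other cell types were called above, Podxl and Aqp1 among them. Of all probe sets, 44.4% were above that level.

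Calls differed between the lists, which were not tested against each other. Enzymes of the TCA cycle were called above the level in 8 of 9 cases, whereas none of the 9 glucose transporters was. In RNA of many cells, fewer cells that use a gene and less RNA per cell cannot be told apart. Over the 3 glycolysis lists 5 of 18 genes were above and 13 (72.2%) below. In all, limma called 16 of the 52 genes above the level, 33 below and 3 neither. Over all 21789 probe sets, 15.8% were called above and 72.5% below, so the share of glycolysis genes below is near that of all probe sets. The median level of the 52 genes was 5.52, against 5.04 over all probe sets. These medians and shares describe the list, and no test between the list and other genes was made.

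**Figure D1:**
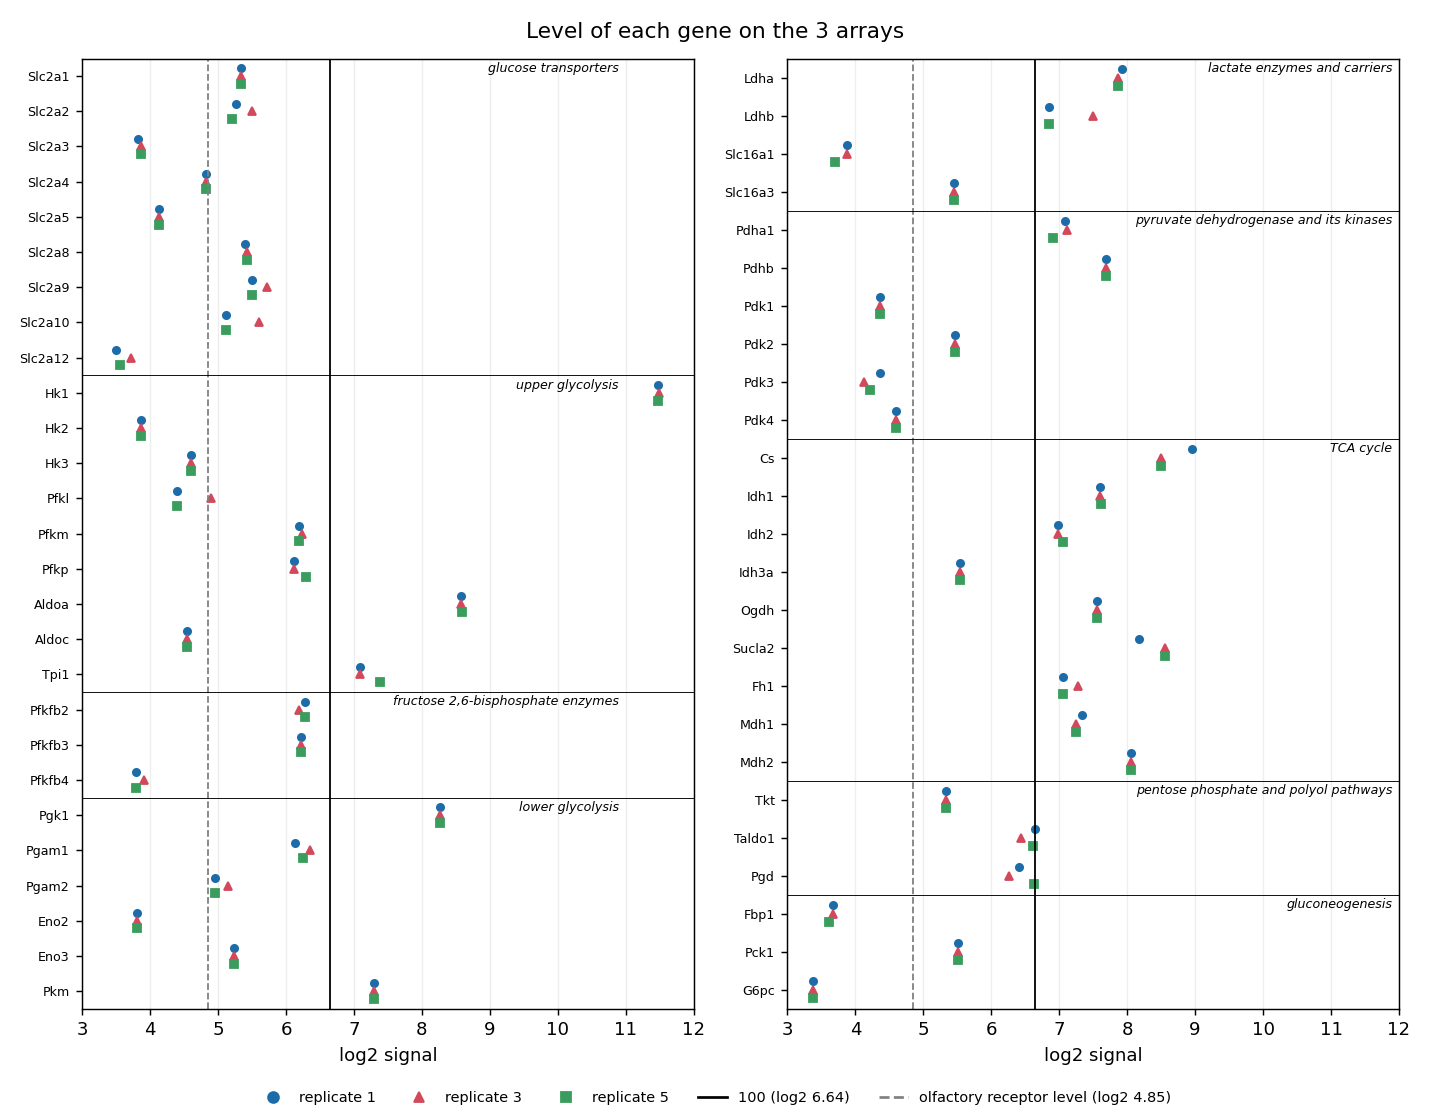
Log2 signal (horizontal axis) of each of the 52 genes on replicates 1, 3 and 5 (points), grouped by role, with the detection level of 100 (solid line) and the olfactory receptor level (dashed line). The TCA cycle genes lie to the right of the solid line except for Idh3a, and the 9 glucose transporters lie to its left on every array.

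Glucose transporters were measured below the level without exception, and the largest adjusted p among the 9 was 0.0016. Of all probe sets, 72.5% were called below. Slc2a1, which encodes GLUT1, the basal transporter of endothelium, had 5.33 on each array (adjusted p = 0.000576). Slc2a3, the gene of the high-affinity neuronal transporter GLUT3, had 3.81, 3.86 and 3.86. These values are far from the level, on the low side, and also under the olfactory receptor level for Slc2a3. Slc2a4, which encodes the insulin-dependent GLUT4 of muscle and fat, had 4.83 on each array. Slc2a2, the transporter gene of liver, beta cells and proximal tubule, had 5.26, 5.49 and 5.20, and the fructose transporter gene Slc2a5 had 4.13 on each array. Among the less studied members of the family, Slc2a8 had 5.40, 5.43 and 5.43, and the urate transporter gene Slc2a9 had 5.50, 5.72 and 5.50. Slc2a10, the gene mutated in arterial tortuosity, had 5.11, 5.60 and 5.11, so that replicate 3 stood above the other arrays. Slc2a12 had 3.50, 3.71 and 3.56. Against the olfactory receptor level, 44.4% of all probe sets were called above and 36.2% below. The 9 transporters were near these shares, with 4 above (Slc2a1, Slc2a2, Slc2a8 and Slc2a9), 3 below (Slc2a3, Slc2a5 and Slc2a12) and 2 neither. A level below 100 therefore does not show that a transporter is absent.

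Hexokinase, which traps glucose as its 6-phosphate, gave the widest disagreement between probe sets of 1 gene. Hk1 encodes the hexokinase found in most tissues. One of its probe sets had 11.47, 11.49 and 11.47, and was called above the level (adjusted p = 6.88e-05). The other had 6.31 on each array and was called neither (adjusted p = 0.0521). The alternatives that keep the level of 100 gave adjusted p-values from 1.28e-07 to 0.0521 for Hk1. The probe sets differ by 5.17 on the log2 scale. The brighter probe set is assigned to Hk1 through 1 sequence record, which is not a RefSeq record, and the dimmer through 8 records, 4 of them from RefSeq. Which of them reports Hk1 messenger RNA was not tested, so the call of Hk1 depends on the probe set. Hk2, the inducible and insulin-responsive form, was below at 3.87 on each array, and so was Hk3, known from myeloid cells, at 4.60 on each array.

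The next steps of upper glycolysis gave 2 genes above the level, Aldoa and Tpi1. Phosphofructokinase, the committed step, is a tetramer of subunits from 3 genes, and all 3 were called below. Pfkl, the liver type subunit, had 4.39, 4.90 and 4.39. Pfkm, the muscle type, had 6.18, 6.23 and 6.18 and was much nearer to the level (adjusted p = 0.0231), as was the platelet type Pfkp, with 6.11, 6.11 and 6.29 (adjusted p = 0.0227). Both stood well over the olfactory receptor level. The call of Pfkp was lost without replicate 1 (adjusted p = 0.0507, with 0.00646 to 0.0507 over the alternatives that keep the level of 100). Aldoa, the ubiquitous aldolase, was above the level with 8.57, 8.57 and 8.59 (adjusted p = 0.000172), or 3.83 times the level of 100, whereas the brain form Aldoc was below at 4.55 on each array. Tpi1, which interconverts the triose phosphates that aldolase makes, was above with 7.09, 7.09 and 7.38 (adjusted p = 0.0195), highest on replicate 5.

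Enzymes that make and remove fructose-2,6-bisphosphate, the activator of phosphofructokinase, were called below in all 3 measured cases, as were 72.5% of all probe sets. Pfkfb3, the form with the highest kinase activity and a known driver of endothelial glycolysis in sprouting vessels, had 6.23 on each array (adjusted p = 0.0278). Pfkfb2, first described in heart, had 6.28, 6.19 and 6.28 (adjusted p = 0.0344). Both lay within 0.42 log2 of the level and were called above the olfactory receptor level. The call of Pfkfb2 was lost without replicate 1 or replicate 5 (adjusted p = 0.0539 and 0.051, with 0.00171 to 0.0539 over the alternatives that keep the level of 100). Pfkfb4 was far lower, at 3.78, 3.92 and 3.78.

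In lower glycolysis, where ATP is made, 2 of 6 genes were called above. Pgk1, phosphoglycerate kinase, had 8.26 on each array (adjusted p = 0.000293). Pkm, whose transcript is spliced into the pyruvate kinases M1 and M2, had 7.29 on each array (adjusted p = 0.00668). These values cannot separate the splice forms. Pgam1, the widely used phosphoglycerate mutase, was called below with 6.13, 6.35 and 6.26 (adjusted p = 0.0393), a call that was lost without replicate 1 or 5 (adjusted p = 0.0837 and 0.0663, with 0.0126 to 0.0837 over the alternatives that keep the level of 100). The muscle mutase gene Pgam2 had 4.95, 5.14 and 4.95. The tissue-restricted enolases were also below, with the neuronal Eno2 at 3.81 and the muscle Eno3 at 5.24 on each array.

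Several genes were read by more than 1 probe set. The 3 probe sets of Pgk1 differed by 0.0231 on the log2 scale, and 2 of them carry the same values. For Pgam1, 2 probe sets had the same values and the third had 5.45, 6.17 and 5.88, all called below. The second probe set of Pkm had 7.17 on each array and was also called above (adjusted p = 0.0133). The array names these probe sets by the same gene, and signal from near-identical copies elsewhere in the genome cannot be told apart here. Ldhb differed most after Hk1, by 2.95 between its probe sets.

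**Figure D2:**
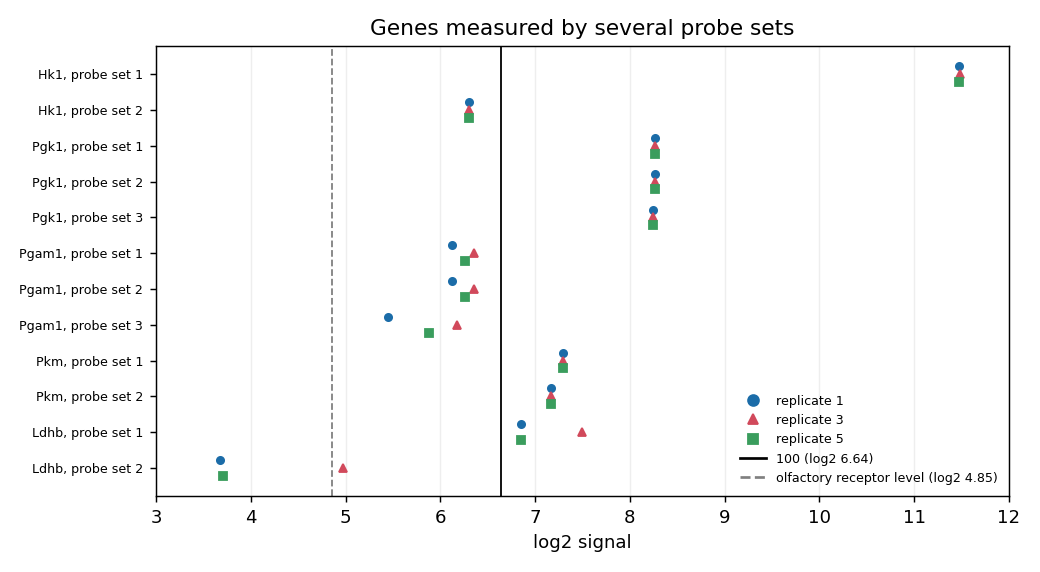
Log2 signal (horizontal axis) on replicates 1, 3 and 5 (points) for every probe set of the 5 genes with more than 1, with the level of 100 (solid line) and the olfactory receptor level (dashed line). The probe sets of Pgk1, Pgam1 and Pkm stay on 1 side of the level, while those of Hk1 and Ldhb lie on both sides.

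Lactate dehydrogenase and the lactate carriers gave 1 gene above the level. Ldha, the subunit that favours making lactate, had 7.92, 7.86 and 7.86 (adjusted p = 0.000722). Ldhb, the subunit that favours using lactate, was called neither at 6.85, 7.50 and 6.85 (adjusted p = 0.1, with 0.0168 to 0.147 over the alternatives that keep the level of 100). All 3 values are over the level, and replicate 3 stands apart. Its other probe set had 3.68, 4.97 and 3.70 and was called below (adjusted p = 0.00194), again with replicate 3 the highest. On replicate 3 the summed signal of the endothelial markers was lower, as given above, and its part in the Ldhb values was not tested. Slc16a1, which encodes the monocarboxylate carrier MCT1, was below with 3.88, 3.88 and 3.70. The gene of the lactate exporter MCT4, Slc16a3, was below with 5.45 on each array.

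Of pyruvate dehydrogenase, the subunit genes Pdha1 and Pdhb were called above the level, while the 4 kinases that switch it off were below. Of all probe sets, 15.8% were above and 72.5% below, and the subunit genes and kinases were not tested against each other. Pdha1, the catalytic alpha subunit and the target of those kinases, had 7.08, 7.12 and 6.90 (adjusted p = 0.0411). That call was lost without replicate 1 or replicate 3 (adjusted p = 0.083 and 0.0535, with 0.0134 to 0.083 over the alternatives that keep the level of 100). Pdhb, the beta subunit, had 7.69 on each array (adjusted p = 0.00127). Among the kinases, the hypoxia-induced Pdk1 had 4.36 on each array, Pdk2 had 5.47 on each array, and Pdk3 had 4.36, 4.13 and 4.22. Pdk4, which fasting and fatty acids induce, had 4.60 on each array. The largest adjusted p among the 4 was 0.000851, for Pdk2. Pdk2 alone of the 4 was called above the olfactory receptor level. Other genes of the complex differed. Dld was above with 8.72, 8.72 and 8.71. Dlat, with 5.86, 5.86 and 5.94, and Pdhx, with 5.47 on each array, were called below. Of the phosphatase genes, Pdp1 was called neither with 6.61, 7.18 and 5.95, and Pdp2 was below at 4.64 on each array.

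The list of TCA cycle genes had 8 of 9 members above the level and a median of 7.55. It also holds the cytosolic Idh1 and Mdh1 and the NADP-dependent Idh2, and without these 3 genes 5 of 6 were above. Cs, citrate synthase, which brings acetyl-CoA into the cycle, had 8.95, 8.50 and 8.50 (adjusted p = 0.000381), and replicate 1 was the highest. The subunit gene of ADP-forming succinyl-CoA ligase, Sucla2, had 8.18, 8.55 and 8.55 (adjusted p = 0.000436), and here replicate 1 was the lowest. Mdh2, the mitochondrial malate dehydrogenase, had 8.06 on each array (adjusted p = 0.000448), and the cytosolic Mdh1, which serves the malate-aspartate shuttle, had 7.33, 7.25 and 7.25 (adjusted p = 0.00755). Ogdh, the first subunit of the 2-oxoglutarate dehydrogenase complex, had 7.55 on each array (adjusted p = 0.00205). Fumarase, encoded by Fh1, had 7.05, 7.28 and 7.06 (adjusted p = 0.0232). The NADP-dependent isocitrate dehydrogenases were both above, with the cytosolic Idh1 at 7.60, 7.60 and 7.61 (adjusted p = 0.00169) and the mitochondrial Idh2 at 6.98, 6.98 and 7.06 (adjusted p = 0.0444). The call of Idh2 was the weakest and was lost without replicate 1 or replicate 5 (adjusted p = 0.0657 and 0.0784, with 0.00214 to 0.0784 over the alternatives that keep the level of 100). The exception was Idh3a, the catalytic subunit of the NAD-dependent isocitrate dehydrogenase, which had 5.54 on each array and was called below (adjusted p = 0.00104).

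Other genes of the cycle, listed by function, gave 6 of 11 above, 3 below and 2 neither. Idh3b and Idh3g, the partner subunits of Idh3a, were above, at 8.33 ± 0.10 and at 9.23 on each array. Suclg1, the shared subunit of succinyl-CoA ligase, had 7.20 on each array, and the GTP-forming partner Suclg2 had 7.12, 8.10 and 7.51, highest on replicate 3. The call of Suclg2 was lost without replicate 5 (adjusted p = 0.0538, with 0.0129 to 0.0538 over the alternatives that keep the level of 100). Sdha, the flavoprotein of succinate dehydrogenase, was above at 8.14 on each array. The other subunit genes of that enzyme differed. Sdhc was above with 8.96, 8.96 and 8.03, Sdhb was called neither with 6.92, 6.92 and 7.17, and Sdhd was below at 5.98 on each array. Dlst, of the 2-oxoglutarate dehydrogenase complex, was called neither at a mean of 6.72. The cytosolic aconitase gene Aco1 was below at 5.41 ± 0.11. Over both lists, 14 of 20 measured genes were called above and 4 below. These include Idh1, Mdh1, Idh2 and Aco1, which are cytosolic or NADP-dependent. Over all probe sets, 15.8% were called above and 72.5% below.

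**Figure D3:**
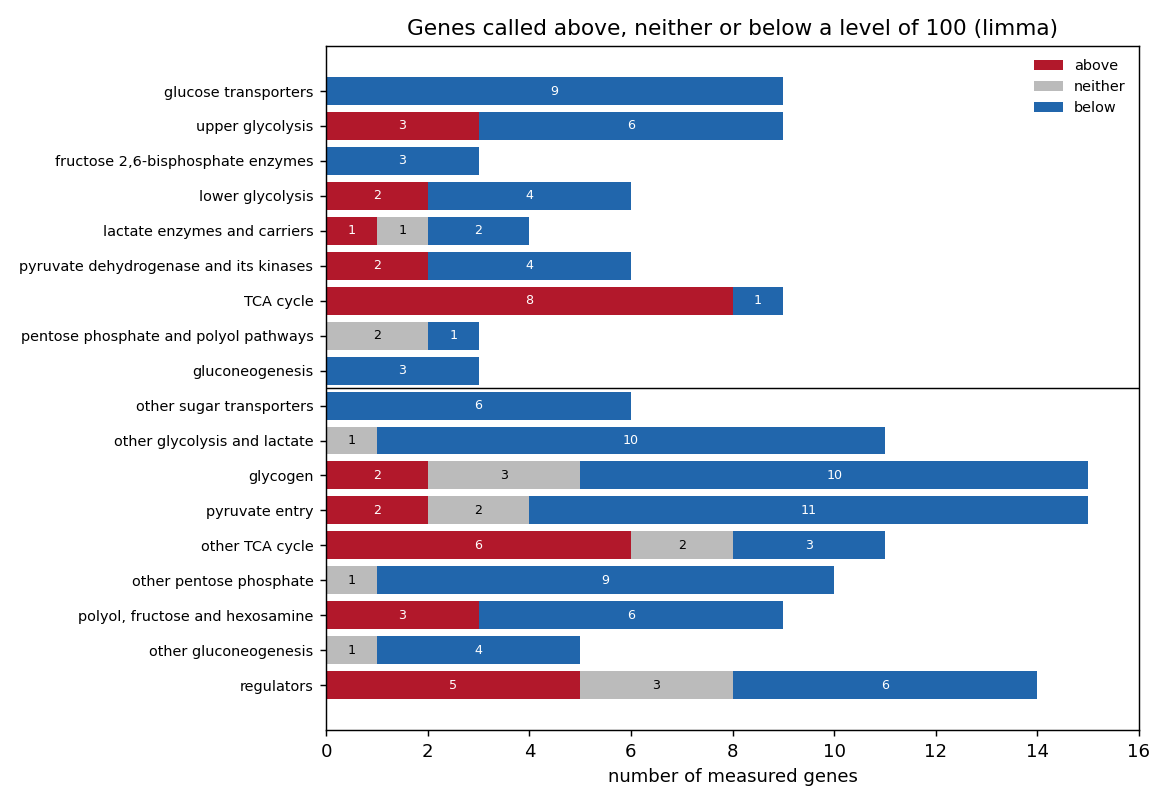
Number of measured genes (horizontal axis) in each list that limma called above, neither or below the level of 100, for the 9 groups of the 52 genes (over the line) and the 9 lists of other genes of the same pathways (under it). TCA cycle enzymes are above in 8 of 9 and 6 of 11 cases, and both transporter lists are entirely below.

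The pentose phosphate pathway was measured near the level or below it. Pgd, 6-phosphogluconate dehydrogenase of the oxidative branch, was called neither with 6.41, 6.26 and 6.63 (adjusted p = 0.221). Taldo1, transaldolase of the non-oxidative branch, was also called neither with 6.65, 6.44 and 6.62 (adjusted p = 0.602). Both had their lowest value on replicate 3. Tkt, transketolase, was below at 5.33 on each array (adjusted p = 0.000576). Of 10 other genes of the pathway 9 were below, as were 72.5% of all probe sets, and 1 neither. H6pd, the enzyme of the endoplasmic reticulum, had 5.11 on each array, and Pgls, the lactonase, had 5.97, 6.38 and 6.60. Among 9 genes of the polyol, fructose and hexosamine branches, 3 were above, all of the hexosamine branch. Gnpnat1, which acetylates glucosamine phosphate, had 7.66, 8.63 and 7.66. Ogt, which puts N-acetylglucosamine on proteins, had 7.25 ± 0.11, and Oga, which takes it off, had 7.58 ± 0.17. Khk, ketohexokinase, was below at 5.79, and Sord was not analysed here.

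The 3 gluconeogenic genes of the list were all called below, as were 72.5% of all probe sets. Fbp1, fructose-1,6-bisphosphatase, had 3.66, 3.66 and 3.62. G6pc, the catalytic subunit of glucose-6-phosphatase, had 3.38 on each array, and both genes were called below the olfactory receptor level as well. Pck1, phosphoenolpyruvate carboxykinase, had 5.50 on each array, which is below 100 (adjusted p = 0.000936) but above the olfactory receptor level (adjusted p = 0.00786). Of the 5 other genes of this pathway 4 were below and 1 neither, with Fbp2 at 4.16 and Pck2 at 5.70. Of the 9 measured markers of the proximal tubule, where these enzymes work, 8 were below and the ninth was Aqp1. The signals of the 8 summed to 149, 158 and 164 on replicates 1, 3 and 5.

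In the remaining lists of enzymes and carriers, as over all probe sets (15.8% above and 72.5% below), most genes were below the level. All 6 other sugar transporters were below, including Slc2a6 at 5.45 and Slc2a7 at 5.15. Of 11 other genes of glycolysis and lactate, 10 were below and 1 neither, and Hkdc1, a further hexokinase gene, had 3.89 on each array. The list also names Gapdh, which was not analysed here. Of 15 glycogen genes 2 were above, 10 below and 3 neither. Ugp2, which makes UDP-glucose, had 8.39, 8.42 and 8.42, and Pgm2, a phosphopentomutase and phosphoglucomutase, had 8.06, 7.02 and 8.08, lowest on replicate 3. The call of Pgm2 was lost without replicate 1 or 5 (adjusted p = 0.0739 and 0.0733, with 0.000615 to 0.0739 over the alternatives that keep the level of 100). The synthase genes of muscle and liver, Gys1 and Gys2, were below at 3.94 and 3.30. Of 15 other genes of pyruvate transport and use, among them malic enzymes and carriers of the plasma membrane, 2 were above, 11 below and 2 neither. Bsg, which encodes basigin, the partner protein of MCT1 and MCT4, had 7.19, 8.14 and 7.59, and Dld, a subunit shared by pyruvate and 2-oxoglutarate dehydrogenase, had 8.72, 8.72 and 8.71. The pyruvate carrier gene Mpc1 was called neither at 6.75, 6.13 and 6.75, and Mpc2 was not analysed here.

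Among 14 regulators of these pathways, 5 were called above, 6 below and 3 neither. Of all probe sets, 15.8% were above and 72.5% below. The 6 regulators below were Myc at 3.56, Ppargc1a at 3.71, Mlxipl at 5.01, Prkaa2 at 5.21, Foxk2 at 5.75 and Foxk1 at 5.78. Epas1, the hypoxia-inducible factor HIF-2 alpha, had 10.71, 10.93 and 10.71, and its partner Arnt had 7.10 on each array. Hif1a was called neither at 6.87 on each array (adjusted p = 0.139), but above with limma's prior from all probe sets (adjusted p = 1.03e-05, with 1.03e-05 to 0.181 over the alternatives that keep the level of 100). Txnip, a glucose-responsive inhibitor of glucose uptake, had 10.50, 10.54 and 10.67. Foxo1, which restrains metabolism in resting endothelium, had 7.98, and Klf2, a flow-responsive factor that lowers endothelial glycolysis, had 7.78, each on all arrays.

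Hypoxia-inducible factors bind to DNA at the letters ACGTG, so the promoters of the 52 genes were searched for them. The window was the 250 bases before the first start site that RefSeq (GRCm38.p6) lists for a gene, read on both strands, and the motif overlaps the E-box CACGTG, which then counts on each strand. A window was found for 49 genes, of which 16 (32.7%) hold the motif, against 18.5% of the 15563 promoters of genes measured on the array and 16.6% of all 27025 promoters in the table. The share was 5 of 16 among genes called above the level and 11 of 30 among those called below, so the letters occur on both sides of the level. The windows of 4 genes are printed to show this, 2 called above (Ldha at chr7:46845554-46845803 and Pgk1 at chrX:106186850-106187099, both on the plus strand) and 2 called below (Hk2 at chr6:82774455-82774704 on the minus strand and Slc16a1 at chr3:104638414-104638663 on the plus strand). Each is written 5′ to 3′ along its gene, with the motif and its reverse complement in capitals.
Ldha: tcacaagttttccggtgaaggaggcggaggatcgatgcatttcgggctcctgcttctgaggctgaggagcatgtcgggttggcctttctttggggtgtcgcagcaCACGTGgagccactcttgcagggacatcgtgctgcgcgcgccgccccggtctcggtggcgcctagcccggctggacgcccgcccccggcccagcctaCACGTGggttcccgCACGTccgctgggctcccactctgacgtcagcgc
Pgk1: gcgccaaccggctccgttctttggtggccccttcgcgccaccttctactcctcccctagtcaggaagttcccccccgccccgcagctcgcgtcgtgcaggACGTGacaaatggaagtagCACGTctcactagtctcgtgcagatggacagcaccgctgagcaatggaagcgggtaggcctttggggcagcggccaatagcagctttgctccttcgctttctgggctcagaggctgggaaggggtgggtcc
Hk2: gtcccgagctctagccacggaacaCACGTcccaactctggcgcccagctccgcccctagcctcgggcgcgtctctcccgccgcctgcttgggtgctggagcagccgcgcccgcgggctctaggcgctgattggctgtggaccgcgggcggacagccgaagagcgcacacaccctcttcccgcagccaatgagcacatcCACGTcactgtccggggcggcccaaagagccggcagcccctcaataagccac
Slc16a1: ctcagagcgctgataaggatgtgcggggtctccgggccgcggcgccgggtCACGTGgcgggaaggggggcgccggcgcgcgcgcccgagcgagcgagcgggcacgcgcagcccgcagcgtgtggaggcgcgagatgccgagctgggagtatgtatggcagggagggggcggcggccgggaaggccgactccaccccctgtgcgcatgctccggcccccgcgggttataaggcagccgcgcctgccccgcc
Ldha has 5 matches in this window, and Pgk1, Hk2 and Slc16a1 have 2 each. Such a match is a string of letters and not a measured binding site.

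**Figure D4:**
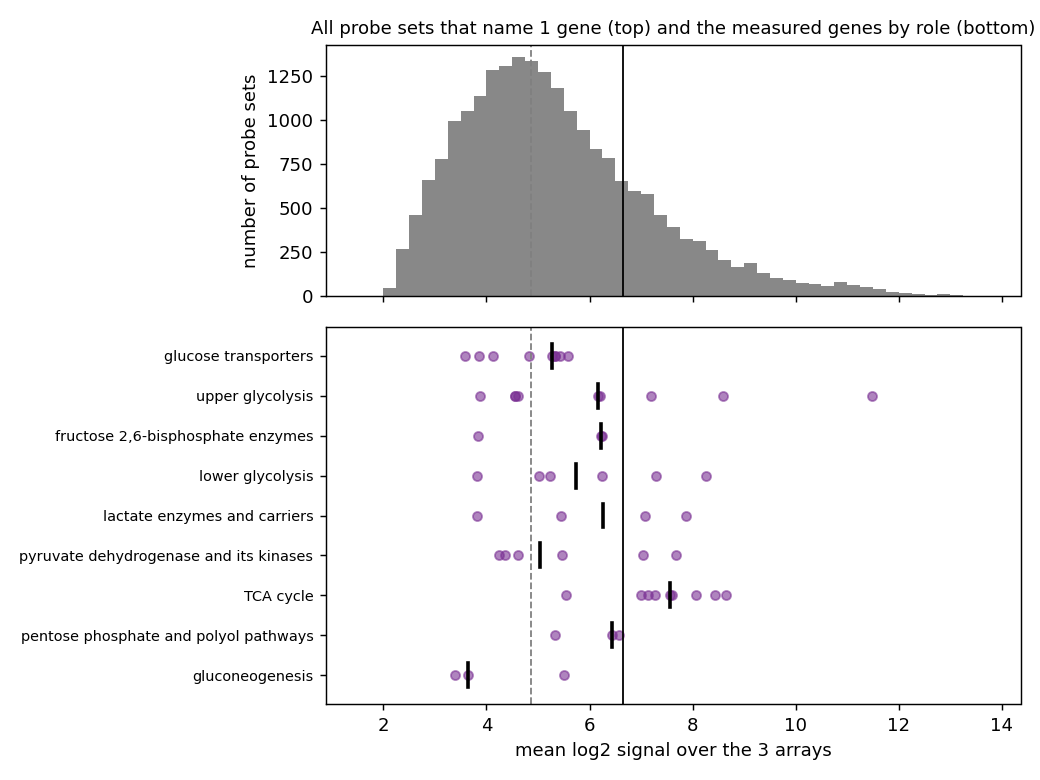
Number of probe sets that name 1 gene by mean log2 signal (top), and the mean log2 signal of each of the 52 genes by role (bottom, points, with a bar at the group median), with the level of 100 (solid line) and the olfactory receptor level (dashed line). The TCA cycle median is 7.55 and that of the glucose transporters 5.27, while the median over all probe sets is 5.04.

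The counts depend on the reference. Against the olfactory receptor level, limma called 34 of the 52 genes above, 11 below and 7 neither, where 44.4% of all probe sets were above and 36.2% below. The 9 TCA cycle genes were all above it, Idh3a included, as were Pfkm, Pfkp, Pfkfb2, Pfkfb3, Pgam1, Tkt, Taldo1 and Pgd. Those below it were Slc2a3, Slc2a5, Slc2a12, Hk2, Pfkfb4, Eno2, Slc16a1, Pdk1, Pdk3, Fbp1 and G6pc.

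None of the 52 differed by over 2-fold between its highest and lowest array, against 5.73% of all probe sets. The widest range was 0.64 on the log2 scale, for Ldhb, followed by Pfkl (0.51), Slc2a10 (0.49), Cs (0.45) and Sucla2 (0.38). Of the 52 genes, 15 (28.8%) had a range over 0.2 on the log2 scale, against 26.5% of all probe sets. The second probe set of Ldhb, which does not stand for the gene in these counts, had a range of 1.29. In Ldhb, Pfkl and Slc2a10 replicates 1 and 5 had equal values and replicate 3 was higher, whereas in Cs and Sucla2 replicates 3 and 5 were equal. Of the 30 genes whose values were not all equal, replicate 3 was farthest from the middle array in 13 (43.3%), and over all such probe sets it was so in 44.2%. The share among these genes is near that of all probe sets and is no result about them.

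Small ranges must be read with the way the values were made. For 22 of the 52 genes the signal was identical on the 3 arrays (within 1e-09), as it was for 54.1% of all probe sets. The number was 5 of 16 genes called above and 17 of 33 called below. For another 22 genes, 2 of the 3 values were equal, and 8 genes had 3 different values. For 16 genes, all 3 values were also those of a probe set of another gene, as they were for 47.1% of all probe sets. Slc2a1 and Tkt had the same value of 5.33, which 51 genes hold, and Hk3 and Pdk4 had the same value of 4.60, which 132 genes hold. Equal values were therefore not read as agreement between kidneys, and for identical values the p-value rests on the variance that limma took from other probe sets.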

How the data were processed

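RNA of sorted glomerular endothelial cells was amplified in 1 round and hybridised to 3 arrays. The authors deposited log2 signals per probe set. Their processing notes name Affymetrix Expression Console, and the study's text names RMA, which fits each probe set by median polish, for its analysis in GeneSpring. The sources used here do not say which arrays entered the normalization. The array medians over all 35557 probe sets were 4.85, 4.80 and 4.79. The number of arrays limits the precision.

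The platform annotation names 1 gene for 21789 probe sets, several for 1621 and none for 12147. An intercept-only fit (limma 3.58.1, R 4.3.3) compared each mean with 100 on the log2 scale in a two-sided test, and p-values were adjusted by Benjamini and Hochberg's method over all 21789. Because of the ties, the variance prior (SD 0.288 with 2.03 degrees of freedom) was estimated from the 4406 probe sets whose 3 values differ. The fit was also run on simulated data. Their variances were drawn from this same prior, so that run cannot show whether the prior suits these data. The probe set with the highest mean stood for a gene. The members, lists and tests were chosen with earlier results of these data known. Named were all measured members, and of each wider list the genes called above (at most 5, in list order) with its first 2. Dlat, Pdhx, Pdp1, Pdp2, Sdhb, Sdhc, Sdhd and Dlst were named outside this rule, and alternatives to their calls are not reported. Alternatives were another prior, 2 other levels, a rule without a test, a filter on low values, centring, the mean of probe sets and leaving out each replicate.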

Additional observations from a re-analysis of the deposited data

How the results depend on the processing

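The level decides the counts. At the olfactory receptor level 34 of the 52 genes were above and 11 below, and at 200 there were 6 above. Of the 96 other pathway genes, 18 above and 65 below at 100 became 54 and 27 at the olfactory level, with 8 above at 200. Without low probe sets, which leaves 36 and 63 genes, 15 and 31 were below, and the median of the members moved from 5.52 to 6.50, because low genes were left out. Under limma's prior from all probe sets, centring, the mean of probe sets and the rule that every array lies on 1 side of 100, the counts of members stayed between 15 and 17 above and between 33 and 34 below. Without 1 replicate they were 14 to 15 above and 30 to 33 below, and no member differed by over 2-fold under any of the settings run. No paired analysis was possible because all arrays form 1 group.

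Values on the other side of another level, as the mean minus that level in log2, were as follows. At the olfactory level they were 0.48 for Slc2a1, 0.47 for Slc2a2, 0.56 for Slc2a8, 0.72 for Slc2a9, 0.42 for Slc2a10, 1.35 for Pfkm, 1.32 for Pfkp, 1.40 for Pfkfb2, 1.37 for Pfkfb3, 1.39 for Pgam1, 0.16 for Pgam2, 0.39 for Eno3, 0.59 for Slc16a3, 0.62 for Pdk2, 0.69 for Idh3a, 0.48 for Tkt, 1.71 for Taldo1, 1.58 for Pgd and 0.65 for Pck1. For other named genes they were 0.59 for Slc2a6, 0.30 for Slc2a7, 1.69 for Mpc1, 0.56 for Aco1, 0.26 for H6pd, 1.46 for Pgls, 0.93 for Khk, 0.85 for Pck2, 0.61 for Nphs1, 0.40 for Itga8, 0.51 for Slc34a1, 0.30 for Umod, 0.43 for Cd68 and 0.43 for Alas2. At 200 they were -0.46 for Tpi1, -0.35 for Pkm, -0.58 for Ldhb, -0.61 for Pdha1, -0.0394 for Idh1, -0.64 for Idh2, -0.0900 for Ogdh, -0.51 for Fh1 and -0.37 for Mdh1, and outside the members -0.0024 for Bsg, -0.44 for Suclg1, -0.0638 for Suclg2, -0.39 for Ogt, -0.0652 for Oga, -0.77 for Hif1a and -0.54 for Arnt. Mpc1 ranged from -0.20 to 0.11 around 100 when 1 replicate was left out, and was called neither each time. With the mean of its probe sets Ldhb was at -1.05 from 100 and was called below. With the probe set that has a RefSeq record, an alternative chosen after seeing the data, Hk1 was at -0.34 from 100 and was called neither. With limma's prior from all probe sets Hif1a was called above and Pgm2 neither. The calls of Pfkfb2, Pgam1, Pdha1 and Idh2 were lost when low probe sets were left out, and that of Idh2 also with centred arrays.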
